A study of Mus musculus with 24 samples.

Results

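Adult-type globin genes and the first enzyme gene of red cell heme synthesis were followed in the left ventricle of mice with and without angiotensin II (ANG II): the alpha globin genes Hba-a1 and Hba-a2, the beta globin genes Hbb-bs and Hbb-bt, and Alas2. These 5 genes of the 14912 in the deposited table were selected by symbol. They were proposed because their levels had been seen to differ between the groups, so the group differences given here are descriptions without a test. FPKM scales a fragment number by transcript length and by how many fragments were mapped. As described below, the numbers analysed here are FPKM that had been shifted and scaled within sets of samples, and some are negative. In the hypertensive-LVH group the adjusted means were 3.58, 3.73, 2.86, 3.22 and 2.73 times those of the control group, in the order listed above. These ratios depend on set offsets that are unknown, so they are not folds of plain FPKM. The choice had no threshold, so there are no genes just inside or just outside one.

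Left ventricular RNA came from male wild-type C57BL/6J mice. The hypertensive-LVH group (12 samples) received ANG II, 1500 ng/kg/min, over 7 days from osmotic mini-pumps placed under the skin, and the control group (12 samples) received saline in the same way. The age of the mice is not given in the sources used here. All hearts were punctured and rinsed with saline to clear blood before the ventricle was taken, so both groups share this step, and no label gives the amount of blood that remained. The study looked for immune-related genes and candidate drugs in hypertensive left ventricular hypertrophy, and the globin values come from the same comparison of groups.

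Hemoglobin is a tetramer of alpha and beta globin chains, each holding one heme, and it carries oxygen in red cells. ALAS2, encoded on the X chromosome, is the form of 5-aminolevulinate synthase that red cell precursors use to start heme synthesis, whereas ALAS1 serves other tissues. Red cells lose their nucleus as they mature, and the youngest of them in blood, the reticulocytes, still carry globin and ALAS2 mRNA. Globin mRNA is therefore often seen in RNA from tissues that hold blood, and low globin expression outside red cells has also been described. In whole tissue, fewer cells of a type and less RNA per cell cannot be told apart.

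The stretches upstream of the members are shown because the 5 genes varied together, as described below. All 5 were matched by symbol in the RefSeq promoter table (GRCm38.p6), and 250 bases before each start were searched on both strands for 4 short cores: GATAA, bound by GATA factors, then CACCC, bound by Krüppel-like factors, then CCAAT, bound by factors named after it, and TATAA, bound by the TATA-binding protein. Capitals mark these letters or their reverse complement, and only bases before the first exon of GENCODE vM21 are printed, 5′ to 3′ on the strand of the gene.
Hba-a2 (chr11:32296242-32296488, plus strand): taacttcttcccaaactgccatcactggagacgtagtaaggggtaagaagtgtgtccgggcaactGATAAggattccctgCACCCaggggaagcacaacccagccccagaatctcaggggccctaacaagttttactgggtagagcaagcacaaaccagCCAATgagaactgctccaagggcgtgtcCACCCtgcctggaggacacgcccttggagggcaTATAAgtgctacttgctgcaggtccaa
Hbb-bs (chr7:103828097-103828178, minus strand): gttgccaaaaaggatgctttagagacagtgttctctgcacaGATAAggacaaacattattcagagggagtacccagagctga
Hbb-bt (chr7:103813997-103814173, minus strand): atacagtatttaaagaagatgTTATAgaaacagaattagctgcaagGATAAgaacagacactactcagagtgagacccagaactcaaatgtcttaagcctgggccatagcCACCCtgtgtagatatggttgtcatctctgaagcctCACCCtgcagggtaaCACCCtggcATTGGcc
Alas2 (chrX:150547167-150547374, plus strand): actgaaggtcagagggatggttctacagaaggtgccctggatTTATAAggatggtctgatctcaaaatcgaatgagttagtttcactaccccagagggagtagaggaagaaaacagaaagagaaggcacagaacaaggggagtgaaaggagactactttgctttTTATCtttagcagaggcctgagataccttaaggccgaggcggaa
In the windows of 250 bases, GATAA was present in 5 of 5 members and in 22.6% of 32851 promoters. CACCC was present in 5 of 5 members and in 52.0% of promoters, and TATAA in 5 of 5 members and in 22.8% of promoters. CCAAT was present in 4 of 5 members and in 33.8% of promoters, and the window of Alas2 held no match to it. Of 29 matches in the members 1 overlapped another, in Alas2, where TATAA on the plus strand and TATAA on the minus strand share bases. The promoter entries of Hba-a1 and Hba-a2, which run past the start, shared a run of 297 of their 300 bases. The letters printed for Hba-a2 also occur in the window of Hba-a1, so only Hba-a2 is shown. For Hba-a1 only 89 bases of the window lie before its first GENCODE exon. A match is a description of these letters and not evidence of binding.

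The genome build of the deposited values is not stated, and positions here are those of GRCm38 in GENCODE vM21. Hba-a1 lies at chr11:32283511-32284465 and Hba-a2 at chr11:32296489-32297298, both on the plus strand, with 3 exons each. Their coding sequences of 426 bases differ at 1 base. Of all windows of 150 bases, the read length, 48.4% of the Hba-a1 transcript also occur in Hba-a2 and 65.7% of the Hba-a2 transcript occur in Hba-a1. Hbb-bs lies at chr7:103826534-103828096 and Hbb-bt at chr7:103812524-103813996, both on the minus strand with 3 exons. Their coding sequences of 441 bases also differ at 1 base, and 58.7% and 50.7% of their windows were shared. The share between Hba-a1 and Hbb-bs was 0%. The authors' counting tool, RSEM, divides such shared reads by estimation, so the split within each pair is uncertain and the alpha and beta sums are firmer. Alas2 lies at chrX:150547375-150570638 on the plus strand, with 11 exons.

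The deposited values are not plain FPKM. Of all values 2741 (0.766%) in 1201 genes were negative, and exact ties divided the samples of either group into 4 sets by sample number (1-3, 4-6, 7-9 and 10-12), within which each gene had been shifted and scaled. Sums over all genes were 460715 to 515185 in the hypertensive-LVH group and 482319 to 567727 in the control group, and the read depth is unknown. The ventricular myocyte list was high in every sample, with a summed level of 35609 to 52053 FPKM in the hypertensive-LVH group and 46632 to 60425 FPKM in the control group. The sets are called sets because no label says what they were.

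Alpha globin mRNA was abundant in the ventricles of both groups, and more so with ANG II. Hba-a1, an adult alpha globin, measured 251, 1040 and 2303 FPKM in the lowest, median and highest hypertensive-LVH sample, and 31.3, 229 and 1066 FPKM in the control group. The highest value was in hypertensive-LVH sample 10 and the lowest in control sample 10, both of set 4. In sets 1 to 4 the hypertensive-LVH means were 833, 1027, 1046 and 1192 FPKM. The control means were 475, 263, 241 and 166 FPKM, in the opposite order. Each set had been shifted with both groups together, so the low value of control sample 10 also carries that shift. The group means were 1025 ± 620 FPKM (SD, n = 12) and 286 ± 270 FPKM (SD, n = 12), and the difference of log2(FPKM + 1) was 2.03. Hba-a1 ranked 45th by mean level among all genes in the hypertensive-LVH group and 266th in the control group. The groups overlapped in the deposited values, where pairs of samples from different sets also carry the set adjustment. Of 12 hypertensive-LVH samples 5 lay above the highest control sample and 12 above the control median. Of 144 cross-group pairs 131 were higher with ANG II. Background for such counts is given by limma on all genes, where 20.9% of 14026 genes tested passed the adjusted p upward and 12.6% downward (2928 and 1769 genes, or 1922 and 2930 with quantile normalization). Since the members were chosen on this contrast, nothing is read from the count.

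Hba-a2, the other adult alpha globin, measured 166, 562 and 1518 FPKM in the lowest, median and highest hypertensive-LVH sample. In the control group these values were -45.4, 116 and 607 FPKM, and 3 of 12 control values were negative. The means were 629 ± 422 FPKM (SD, n = 12) and 169 ± 196 FPKM (SD, n = 12). The log2 difference of 3.39 is raised by the negative control values, which were set to 0 before the logarithm was taken, and the log2 ratio of the means was 1.90. The highest control was sample 3, as for the other 4 members.

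The alpha sum of the 2 genes was 1654 ± 1021 FPKM (SD, n = 12) with ANG II and 455 ± 445 FPKM (SD, n = 12) in the control group. The negative Hba-a2 values were kept in these sums, and the alpha sum of control sample 10 was itself negative, at -4.68 FPKM. In 129 of 144 pairs the hypertensive-LVH sample was higher.

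Beta globin mRNA differed between the groups in the same direction. Hbb-bs, an adult beta globin, measured 318, 875 and 2298 FPKM in the lowest, median and highest hypertensive-LVH sample. In the control group the lowest, median and highest were 53.2, 300.3 and 1124 FPKM. The means were 983 ± 592 FPKM and 343 ± 274 FPKM (SD, n = 12 each), with a log2 difference of 1.63. Hypertensive-LVH samples 9 and 10 stood highest, and 6 of 12 control samples lay above the lowest hypertensive-LVH sample.

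Hbb-bt, the other adult beta globin, was lower throughout, at 37.6, 122 and 288 FPKM in the lowest, median and highest hypertensive-LVH sample. The control group measured 6.39, 34.8 and 138 FPKM. Means were 127 ± 74.1 FPKM and 39.5 ± 33.7 FPKM (SD, n = 12 each), and the log2 difference was 1.76. Hbb-bt made up 9.27% to 13.5% of the beta sum in the hypertensive-LVH group and 7.96% to 15.1% in the control group, so the 2 ranges overlapped.

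The 4 globin genes together took 0.162%, 0.588% and 1.25% of all FPKM in the lowest, median and highest hypertensive-LVH sample, and 0.0106%, 0.135% and 0.517% in the control group. The lowest control share is that of sample 10, which includes a negative Hba-a2 value of -36.0 FPKM. Its 4-gene sum of 54.9 FPKM therefore lay below its beta sum of 59.6 FPKM, and this share is not a measured level.

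Alas2 stood far below the globins on the FPKM scale, which is per length. It measured 6.07, 13.4 and 36.9 FPKM in the lowest, median and highest hypertensive-LVH sample and 1.29, 6.05 and 14.4 FPKM in the control group. Means were 15.8 ± 9.24 FPKM and 5.78 ± 3.30 FPKM (SD, n = 12 each), with a log2 difference of 1.27. By mean level it ranked 4228th in the hypertensive-LVH group and 7458th in the control group.

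By mean level the order was Hba-a1, Hbb-bs, Hba-a2, Hbb-bt and Alas2 in the hypertensive-LVH group. In the control group Hbb-bs came before Hba-a1. The means of Hba-a1 and Hbb-bs lay within 1 SD of each other in both groups, and those of Hba-a2 and Hbb-bs did too, whereas Hbb-bt and Alas2 were lower than these 3 by more than their spread in the hypertensive-LVH group.

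**Figure D1:**
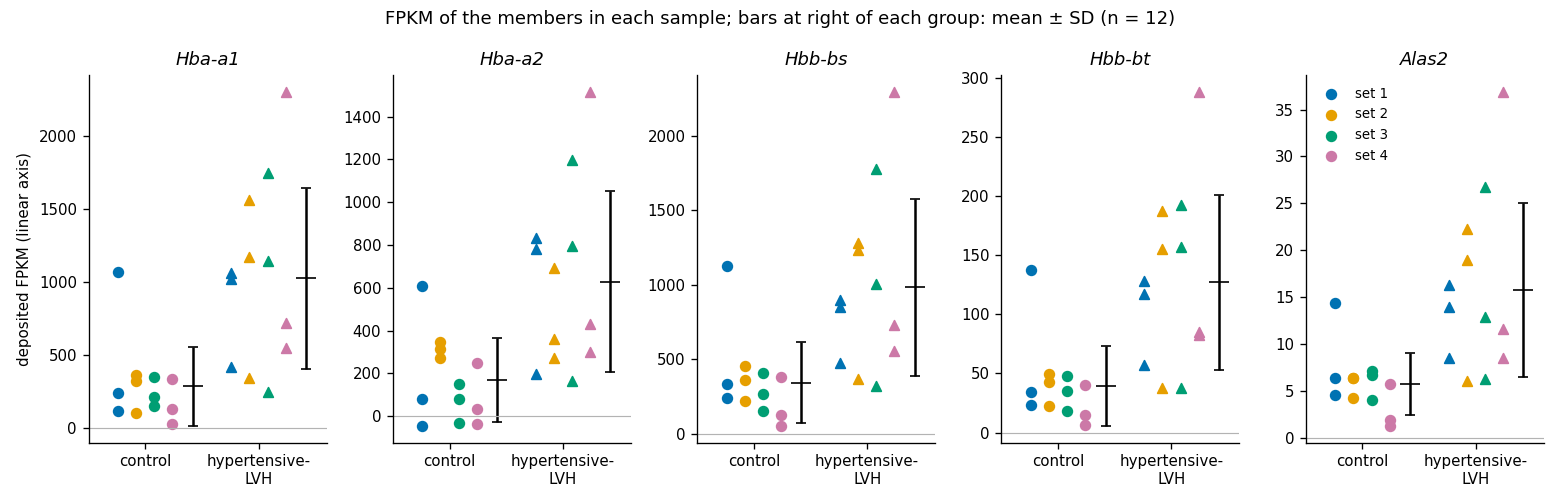
Deposited FPKM (linear y axis, one scale per gene) of the 5 members in the 12 control samples (circles) and 12 hypertensive-LVH samples (triangles), coloured by set, with mean ± SD at the right of each group. Hypertensive-LVH sample 10, in set 4, is the highest point of every panel, and control sample 3, in set 1, stands above the other controls.

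Some samples kept their rank across the 5 genes and others moved. These are ranks of the deposited values over all sets. Shifts and scales differed between sets, so ranks of samples from different sets also carry the adjustment. Hypertensive-LVH sample 10 ranked 1st and sample 9 ranked 2nd of 24 for every member. Control sample 3 ranked between 5th and 7th, in the middle of the hypertensive-LVH samples, and control sample 10 ranked 23rd or 24th. Hypertensive-LVH samples 5 and 8 ranked between 14th and 18th, among the controls. Control sample 6 ranked anywhere from 11th to 23rd and hypertensive-LVH sample 6 from 3rd to 9th, and control samples 4, 7 and 9 each moved by 6 places.

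The group difference was present in each set, but its size varied. In set 1 the deposited difference of means was 358 FPKM for Hba-a1, 391 FPKM for Hba-a2, 177 FPKM for Hbb-bs, 35.4 FPKM for Hbb-bt and 4.46 FPKM for Alas2. In set 4 these differences were 1025, 668, 1008, 131 and 16.1 FPKM. Set 1 holds control sample 3 and set 4 holds hypertensive-LVH sample 10. In set 4 all 9 pairs of samples were higher with ANG II for each member, and in set 1 between 6 and 8 of 9 pairs were.

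Since the adjustment of the values had used the groups, differences within sets were also recovered before it. The values are spaced by multiples of 0.01 FPKM times a scale for each set, and this spacing had a single solution for all 5 members. For Hba-a1 the recovered differences were 324, 747, 757 and 1238 FPKM in sets 1 to 4. For Hba-a2 they were 393, 185, 588 and 824 FPKM, with the smallest in set 2. Hbb-bs differed by 105, 625, 732 and 1188 FPKM and Hbb-bt by 27.9, 88.1, 92.2 and 155 FPKM. For Alas2 they were 3.68, 10.6, 10.6 and 16.9 FPKM. In sets 2 and 3 the groups did not overlap for any member, with 9 of 9 pairs higher in the hypertensive-LVH group. In set 1 they overlapped for all 5 members (6 to 8 of 9 pairs), and in set 4, where the deposited values did not overlap, they overlapped for 4 members (8 of 9 pairs) and not for Hbb-bt. Averaged over the sets, the recovered difference was 1.04 to 1.08 times the deposited one. The offset of each set is unknown, so no level or fold before the adjustment can be given.

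**Figure D2:**
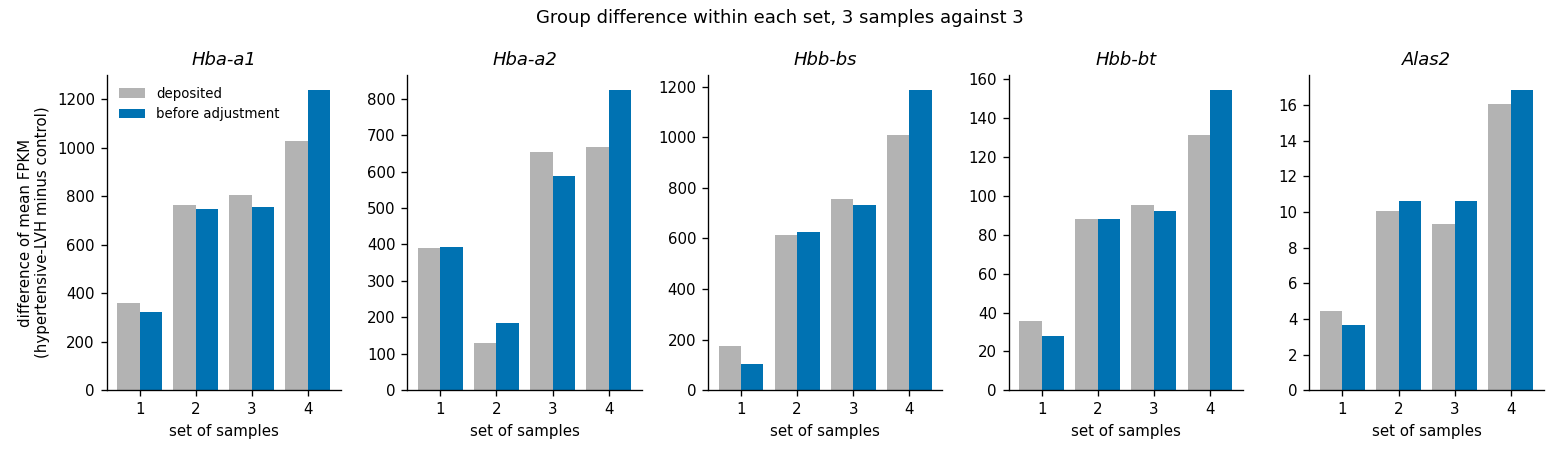
Difference of mean FPKM, hypertensive-LVH minus control, within each set (3 samples against 3) for each member, as deposited (grey bars) and before the adjustment (blue bars). All bars are above 0, and set 1 is the lowest for 4 members while set 2 is the lowest for Hba-a2.

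Within groups and sets, the 5 genes rose and fell together. This relation does not use the difference between groups: the mean of each group and set was removed from log2(FPKM + 1), which leaves 24 samples. All 10 pairs were tested by permuting samples within group and set with 100000 resamples (two-sided), and p-values were adjusted over the 10 pairs by the Benjamini-Hochberg method. Hba-a1 and Hbb-bs, an alpha and a beta globin on different chromosomes, had Pearson's r = 0.973 (permutation p = 1e-05, the smallest that the resamples can give; adjusted p = 3.3e-05) and Spearman's rho = 0.951 (permutation p = 2e-05; adjusted p = 5e-05). With the 2 samples at the extremes of Hba-a1 left out, r was 0.964. Alas2 and Hbb-bs had r = 0.963 (permutation p = 1e-05, adjusted p = 3.3e-05) and rho = 0.958 (permutation p = 1e-05, adjusted p = 3.3e-05), and r was 0.966 with 2 such samples left out. The weakest pair was Hba-a2 with Alas2, at r = 0.675 (permutation p = 7e-05, adjusted p = 7e-05) and rho = 0.796 (permutation p = 4e-05, adjusted p = 8e-05), and r was 0.694 with 2 such samples left out. The other 7 pairs lay between r = 0.755 and r = 0.970, and the 4 pairs with Hba-a2 were the 4 lowest. Taken alone, hypertensive-LVH samples gave r between 0.860 and 0.988, and control samples gave r between 0.822 and 0.973.

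On the values before the adjustment the 10 correlations were 0.946 to 0.992, and 0.840 to 0.976 without hypertensive-LVH sample 10, which lies far from the rest. A rise of 1 FPKM in Hba-a1 went with a rise of 0.943 FPKM in Hbb-bs, 0.672 FPKM in Hba-a2, 0.118 FPKM in Hbb-bt and 0.0125 FPKM in Alas2. Without that sample these slopes were 0.859, 0.645, 0.113 and 0.011 FPKM. For Hba-a2 the slope on Hba-a1 was 0.786, 0.737 and 0.694 in sets 1, 3 and 4 and 0.262 in set 2. In set 2 the Hbb-bs slope on Hba-a1 was 0.72, the lowest of the 4 sets for that pair, and the cause of the set 2 values was not tested.

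**Figure D3:**
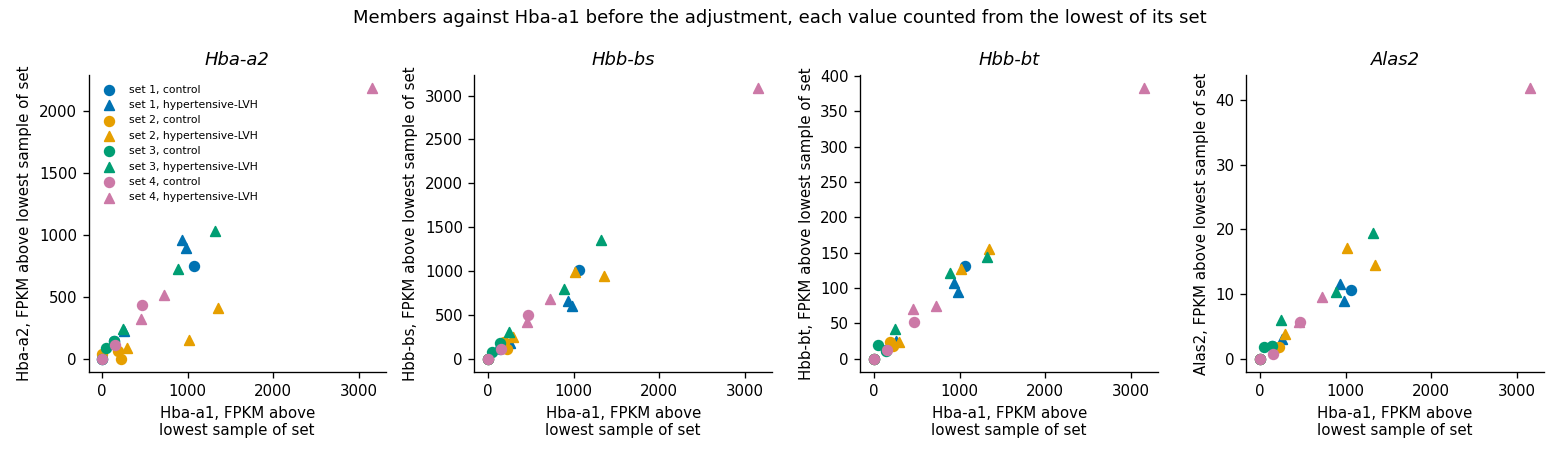
Hba-a2, Hbb-bs, Hbb-bt and Alas2 (y axes, FPKM) against Hba-a1 (x axis, FPKM) before the adjustment, each value counted from the lowest sample of its set, with sets by colour, controls as circles and hypertensive-LVH samples as triangles. Hypertensive-LVH sample 10 is at the top right of each panel, and 2 hypertensive-LVH samples of set 2 fall below the others for Hba-a2.

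Of 14020 other genes with the same group and set means removed, the 10 most like the mean of the members were picked by their r with it. They included Smim19 at r = 0.823, Gsta4 (0.748), Mrpl18 (0.728), Bpgm (0.727), Mcee (0.716), Cox7a2 (0.712), Pccb (0.711), Plcd1 (0.705) and Gsn (0.703). Bpgm encodes the red cell enzyme that makes 2,3-bisphosphoglycerate, Gsta4 a glutathione transferase and Cox7a2 a subunit of cytochrome c oxidase. These r values are a description over 24 samples of the same libraries. Of the 10 genes, 1 passed the limma adjusted p (Benjamini-Hochberg) upward, 7 passed it downward and 2 (Bpgm and Plcd1) did not pass it. Smim19 fell by 0.20 on the log2 scale (adjusted p = 0.00983) and Mcee, a mitochondrial enzyme of propionate breakdown, fell by 0.51 (adjusted p = 9.78e-06), so within-group likeness and the direction between groups differed for these genes.

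The rest of the globin family did not show the pattern as a group. Of 12 other members listed, 3 were tested, of which 0 passed the limma adjusted p upward and 1 downward, against 20.9% and 12.6% of all genes. Their median log2 fold change was 0.16 (0.05 for all genes). At an unadjusted p under 0.05 the upward count was 1, and by the Wilcoxon rank-sum test it was 0. Mb, the oxygen store of muscle, fell by 0.59 ± 0.11 on the log2 scale (SE, adjusted p = 2.43e-04), from a mean of 14147 to 9451 FPKM, and by 0.15 with quantile normalization, where it did not pass. Cygb, a globin of fibroblast-like cells, had a log2 fold change of 0.17 ± 0.15 (adjusted p = 0.389) at means of 51.0 and 45.3 FPKM, and Hbq1b one of 0.16 ± 0.08 (adjusted p = 0.103) at 0.178 and 0.0291 FPKM with 8 negative values. Ngb stayed below the filter, and the other 8 were not analysed here.

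Several defining markers of red cells were below 1 FPKM in both groups. Of 22 red-cell-specific genes 11 were tested, of which 1 passed the adjusted p upward and 1 downward, against 20.9% and 12.6% of all genes. Their median log2 fold change was 0.04. The summed level of the 16 genes in the table was 20.0 to 26.6 FPKM in the hypertensive-LVH group and 22.6 to 28.8 FPKM in the control group. Nfe2, a transcription factor of red cell and platelet precursors, rose by 0.16 ± 0.06 (SE, adjusted p = 0.0487), from 0.171 to 0.313 FPKM, and did not pass by the Wilcoxon test, with either scaling or without any 1 set. Tmcc2 fell by 0.26 ± 0.07 (adjusted p = 0.00548), at means of 14.4 and 17.3 FPKM, and did not pass without set 3 or without set 4. Slc4a1, the anion exchanger of the red cell membrane, measured 0.556 and 0.417 FPKM (log2 fold change 0.10 ± 0.11, adjusted p = 0.492) and had an r of 0.570 with the members, rank 117 of 14020. Epb42, a membrane skeleton protein, measured 0.152 and 0.10 FPKM (log2 fold change 0.07 ± 0.04, adjusted p = 0.149). Among the other tested genes, log2 fold changes were 0.06 for Rhd, 0.04 for Ermap, -0.10 for Epor, 0.01 for Slc38a5 and -0.14 for Icam4, with adjusted p from 0.108 to 0.874. The erythroid factors Klf1 and Gata1 had means of 0.0571 and 0.0485 FPKM with ANG II and 0.106 and 0.0337 FPKM in the control group, below the filter.

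Genes that red cells share with other cells passed in both directions, in counts close to the shares over all genes. Of 17 tested, 4 passed upward and 3 downward, against 20.9% and 12.6% of all genes, so nothing is read from the counts. Without set 4 the upward count was 2. Gpx1, a glutathione peroxidase, rose by 0.53 ± 0.09 (adjusted p = 1.59e-04). Gypc, glycophorin C, fell most, by 0.43 ± 0.10 (adjusted p = 0.00196).

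While Alas2 was higher with ANG II, most other genes of its pathway fell. Of 14 other heme synthesis and transport genes tested, 0 passed the adjusted p upward and 10 passed it downward, and 12.6% of all genes passed downward. The median log2 fold change of the list was -0.23. Upward, 0 passed an unadjusted p under 0.05 and 0 passed by the Wilcoxon rank-sum test. Alad, which condenses the product of ALAS, fell most, by 0.43 ± 0.08 (SE, adjusted p = 1.90e-04). Alas1, the form of the enzyme outside red cells, fell by 0.40 ± 0.10 (adjusted p = 0.00327), from a mean of 144 to 109 FPKM, and on this scale its level was higher than that of Alas2 in both groups. Without set 2 the Alas1 difference was -0.27 and did not pass. Fech, which inserts iron into the ring, fell by 0.21 ± 0.04 (adjusted p = 1.87e-04). Uros fell by 0.37 (adjusted p = 1.27e-04) and Abcb10, a mitochondrial transporter, by 0.38 (adjusted p = 5.80e-05). Ppox and Clpx were among the 4 that did not pass the test. The median r of the list with the members within groups and sets was 0.247, beside 0.313 for the list of other globins, 0.205 for the ventricular myocyte list, 0.187 and 0.186 for the specific and shared red cell lists and -0.063 for all genes.

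Genes for heme breakdown and iron handling were mixed, with 7 of 23 tested passing upward and 2 downward, against 20.9% and 12.6% of all genes. Without set 2 or without set 4 the upward count was 4. Hmox1, which opens the heme ring, had the greatest rise, 2.04 ± 0.52 (SE, adjusted p = 0.00413), with means of 42.5 and 13.9 FPKM and 2 negative values, and without set 3 it had 1.74 and did not pass. Without set 4 it was 1.18 and without set 2 it was 2.63, both past the threshold. Ftl1, ferritin light chain, rose by 0.90 ± 0.14 (adjusted p = 5.55e-05), and Cd163, the hemoglobin scavenger receptor, by 0.55 ± 0.11 (adjusted p = 7.83e-04). Slc11a2, an iron transporter, fell by 0.14 ± 0.04 (adjusted p = 0.00918), and did not pass without set 1 or without set 3, where the downward count was 0. Hp, haptoglobin, had a log2 fold change of 1.05 ± 0.46 and did not pass (adjusted p = 0.0818). The median r of these genes with the members was 0.002.

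**Figure D4:**
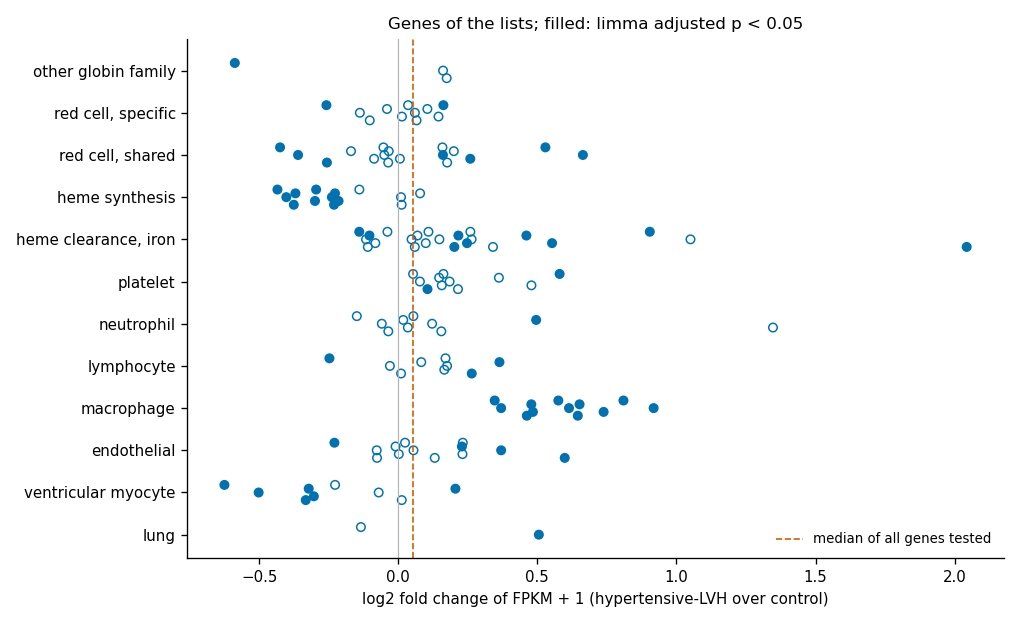
log2 fold change of FPKM + 1 (x axis, hypertensive-LVH over control) of each tested gene in 12 lists (rows), with limma adjusted p under 0.05 filled and the median of all genes as a dashed line. Of the heme synthesis genes 10 of 14 are filled on the left, of the red-cell-specific genes 1 on each side, and the macrophage genes are all filled on the right.

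Marker lists of other cells in blood or ventricle differed in how many genes passed, and their part in the globin values was not tested. Over all genes, 20.9% passed upward and 12.6% downward. Nothing is read from the small counts of the platelet, neutrophil, lymphocyte and endothelial lists beside these shares. All 12 macrophage genes passed the adjusted p upward, with Cd68 highest at 0.92 ± 0.22 (adjusted p = 0.0029), and their sum was 287 to 761 FPKM against 200 to 403 FPKM. Without set 2 only 2 of the 12 passed, and Cd68 was not among them. Of 11 platelet genes 2 passed upward and 0 downward (downward 0 at an unadjusted p under 0.05 and 0 by the Wilcoxon test), with Gp1bb at 0.58 ± 0.12 (adjusted p = 7.87e-04), and the list sum was 14.3 to 55.7 FPKM against 21.6 to 36.2 FPKM. Of 10 neutrophil genes 1 passed upward (Csf3r, 0.50 ± 0.15, adjusted p = 0.0161, not past by the Wilcoxon test), with a sum of 11.5 to 158 FPKM against 6.73 to 87.2 FPKM. S100a8, S100a9 and Retnlg did not pass, at 0.15, -0.06 and 0.02. Lcn2 had the highest mean of the list (31.3 and 10.7 FPKM, highest sample 129 FPKM) and did not pass (adjusted p = 0.107). It weighs most in the sum, which is therefore no measure of neutrophil content. Of 9 lymphocyte genes 2 passed upward (Nkg7 most, 0.36 ± 0.12, adjusted p = 0.0181) and 1 downward (Cd79a, -0.25 ± 0.08, adjusted p = 0.0181), with a sum of 2.57 to 10.4 FPKM against 3.06 to 6.03 FPKM. The endothelial list, written by hand, had 13 genes, of which 3 passed upward and 1 downward. Cyb5r3 rose most (0.60 ± 0.12, adjusted p = 4.59e-04), and whether it marks endothelial cells was not tested. Kdr fell (-0.23 ± 0.08, adjusted p = 0.0309, not past by the Wilcoxon test). The list sum was 527 to 811 FPKM against 517 to 662 FPKM. Pecam1 was among those upward, at 0.37. Cdh5, Tek, Tie1 and Emcn did not pass, at 0.002, -0.01, -0.08 and -0.08, so the list did not rise as a whole. Of 9 ventricular myocyte genes 1 passed upward (Mybpc3, 0.21 ± 0.07, adjusted p = 0.0361) and 5 downward (Tnni3 most, -0.63 ± 0.08, adjusted p = 8.06e-06). Mybpc3 did not pass with median-ratio scaling, a replicate block or a set term, without set 1, 3 or 4, or without any 1 of hypertensive-LVH samples 3, 5, 9 and 10 and control samples 2, 4, 5, 7, 8 and 12. Kdr did not pass without set 1, 3 or 4, or without any 1 of hypertensive-LVH samples 1, 6 and 12 and control samples 1, 4 and 10. Csf3r did not pass without set 2 or set 3, Nkg7 without set 1 or set 2, and Cd79a without set 3 or set 4. With a replicate block Kdr, Csf3r, Nkg7 and Cd79a did not pass, and Nkg7 did not pass with quantile normalization. Of 2 lung genes 1 passed upward (Ager, 0.51 ± 0.15, adjusted p = 0.0106, not past without set 2), at sums of 0.546 to 2.16 FPKM against 0 to 4.47 FPKM. Within groups and sets, the median r with the members was 0.366 for the platelet list, -0.268 for the neutrophil list, -0.179 for the macrophage list and -0.059 for the endothelial list.

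**Figure D5:**
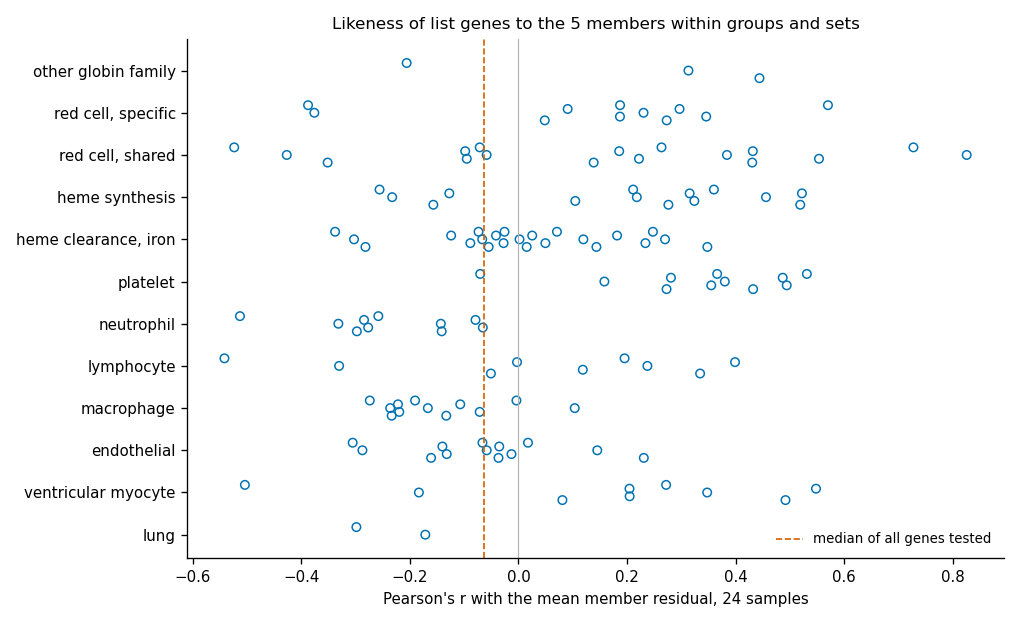
Pearson's r (x axis, 24 samples with group and set means removed) of each tested list gene with the mean of the members, by list (rows), with the median of all genes, -0.063, as a dashed line. The platelet genes lie mostly right of the line and the neutrophil genes lie mostly left of it.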

How the data were processed

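RNA of 24 left ventricles, 12 per group, was enriched with oligo(dT) and sequenced as paired reads of 150 bases. Every sample is labelled left ventricle, whereas the extraction text in the labels names CRC cells. The paper describes 16 per group, and only the 12 per group listed were analysed here. The submitters' processing notes name HISAT, Bowtie2 and RSEM, and the genome build is not given in the sources used here. The authors deposited 1 value per gene and sample, described as FPKM. The values were found to be FPKM adjusted in 4 sets, where plain FPKM had been assumed when the tests were planned.

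The 5 members and the 12 gene lists were chosen with earlier results of these data known. Negative values were set to 0 on the log scale, and log2(FPKM + 1) was used. Genes with a mean of at least 0.1 FPKM (14026) were tested with limma 3.58.1 in R 4.3.3 with an intensity trend, two-sided, with Benjamini-Hochberg adjustment and a threshold of 0.05. The adjustment had used the groups, which no test here allows for. No source says more of how the samples of a group are independent than that they are biological replicates. Correlations were computed in Python 3.11.15 (pandas 2.3.3, numpy 2.4.6, scipy 1.17.1) with 100000 permutations. Named genes were the members, every tested gene of the other globin and red-cell-specific lists, the largest rise and fall of each other list past the threshold, and the 10 genes most like the members. Alas1, Fech, Uros, Abcb10, Ppox, Clpx, Cd163, Ftl1, Gpx1, Hp, Klf1 and Gata1 were named beyond this after their values were seen. So were Pecam1, Cdh5, Tek, Tie1, Emcn, S100a8, S100a9, Retnlg and Lcn2. Some genes that this rule names are not reported here. The spacing of values, which gives differences before the adjustment, and the other scripts were tested on simulated data. Leave-out samples, other scalings, filters and pseudocounts were tried as alternatives. Depth is unknown, so no counting error is given.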

Additional observations from a re-analysis of the deposited data

How the results depend on the processing

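The higher level of each member with ANG II kept its direction under every alternative run: other pseudocounts, group medians, the ratio of means, quantile normalization, median-ratio scaling, leaving out samples or sets, and each set alone. Differences are in log2(FPKM + 1). Leaving out 1 sample or 1 sample number gave 1.65 to 2.24 for Hba-a1, 2.73 to 3.72 for Hba-a2, 1.28 to 1.82 for Hbb-bs, 1.44 to 1.96 for Hbb-bt and 1.02 to 1.39 for Alas2, lowest without number 10 in both groups. Set 2 alone gave 0.39 for Hba-a2 (3.39 over all samples). Set 4 alone gave 2.82 for Hbb-bs, 2.92 for Hbb-bt, 2.23 for Alas2, 5.08 for the alpha sum and 2.84 for the beta sum. The 5.08 is raised by control sample 10, whose alpha sum of -4.68 FPKM was set to 0 before the logarithm. The alpha sum means in set 4 were 1942 FPKM with ANG II and 248 FPKM in the control group. The planned log2 difference before the adjustment could not be computed because set offsets are unknown, and FPKM differences, chosen after seeing the data, took its place. The 10 correlations kept their sign and an adjusted p under 0.05 under every alternative, including those without hypertensive-LVH sample 10 or control sample 3, also chosen after seeing the data.

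Deviations of same-numbered samples correlated between -0.557 and -0.001, and for 0 of 12 numbers was the same-numbered sample the most correlated. Same-numbered samples share a set, and the values had been shifted within sets with both groups together. These correlations therefore cannot show whether the numbers pair the samples. With the replicate number as a block, 2824 genes passed the adjusted p, against 4697, with 0 red-cell-specific genes higher (1 without the block) and 10 heme synthesis genes lower in both.

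Without set 2, 2810 genes passed and 1177 of them were higher. The red-cell-specific count of 1 higher became 0 with a pseudocount of 0.1, a mean FPKM of at least 1, quantile normalization, median-ratio scaling, the Wilcoxon test, no intensity trend or a set term, and without any 1 of the 4 sets, and was 0 to 1 when 1 sample was left out. Heme clearance genes higher numbered 7, and 4 without set 2 or without set 4. Heme synthesis genes lower numbered 8 to 11 under all alternatives, with 10 in the main setting. Ventricular myocyte genes lower numbered 5, and 2 with quantile normalization. Lymphocyte genes higher numbered 2, and 0 with quantile normalization. Platelet genes higher numbered 2, and 0 at a mean FPKM of at least 1. Cygb turned to -0.22 without set 2 and Slc4a1 to -0.079 without set 4. The causes were not tested. Depth is unknown, so genes under 1 FPKM cannot be given a counting error.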
